A study of Mus musculus with 6 samples.

Results

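Chromatin modifiers and remodellers were taken as the genes whose annotated symbol names a histone deacetylase, sirtuin, lysine acetyltransferase, bromodomain (Brd) protein, lysine methyltransferase or demethylase, chromobox protein, DNA methyltransferase, Tet protein, arginine methyltransferase, SWI/SNF-related, Chd or Arid protein, or a Ncor corepressor. This gave 75 probes of 64 genes, out of 10698 genes with a probe of their own in the value table. Of these 64 genes, 61 had a value other than exactly 0 on all 6 arrays. The cells were RAW 264.7, a macrophage-like line from a virus-induced mouse tumour (some labels have RAW 264.4). Treated cells had received bacterial lipopolysaccharide (LPS) at 100 ng/ml and LPS-binding protein (LBP) at 100 pM for 4 h, and untreated cells were cultured for the same 4 h. On each of 6 arrays, total RNA of treated cells was set against that of untreated cells in the other dye, with treated RNA in Cy5 on 3 arrays and in Cy3 on the other 3, numbered as sets 1 to 3 in each orientation.

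DNA in the nucleus is wrapped around histone proteins, and chemical marks on both decide how easily a gene can be read. Acetyltransferases add acetyl groups to histone tails and deacetylases remove them, methyltransferases and demethylases set and erase methyl marks, and bromodomain and chromobox proteins bind to acetylated and methylated histones. Remodellers of the SWI/SNF and Chd families use ATP to shift nucleosomes. In macrophages, deacetylases with their corepressors hold inflammatory genes silent at rest, and SWI/SNF remodelling is needed for part of the response to LPS.

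All values below are log2 ratios, treated over untreated, as mean ± SD over n = 3 sets, where each set is the mean of its array in either dye orientation. A gene is called when its Benjamini-Hochberg adjusted p from limma is below 0.05. The ratio is likely Cy5 over Cy3, since Cy5 is the test channel in the labels. Under the opposite convention all signs would turn. In this reading Il1b, the interleukin-1β gene, was at 4.17 ± 0.055 and Ifit1, an interferon-induced gene, at 4.00 ± 0.091, and all 8 of 8 measured LPS response genes of a list rose. As deposited, arrays of opposite orientation correlated at -0.76 to -0.374 across probes, and arrays of the same orientation at 0.747 to 0.851. The table gives ratios and no intensities, so levels could not be checked, and neither could the presence of macrophage markers. As changes, 4 of 7 measured macrophage markers rose and 1 fell. Among markers of other cell types, Cd4 rose as 1 of 5 T cell markers, and 0 of 5 fibroblast, 0 of 3 B cell and 0 of 2 epithelial markers were called in limma (0 of these had an unadjusted p below 0.05). Their part in the results was not tested. Whether the sets are separate cultures is not stated in the labels, so p-values reflect only how far these samples scatter, and that scatter may be technical. The arrays of sets 1 and 2 tended to deviate in opposite directions, so SDs and p-values from set means may be too small. Fewer cells of a type and less RNA per cell cannot be told apart in such RNA.

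After 4 h of LPS and LBP, most called chromatin genes were lower. Of the 61 measured genes 25 fell and 4 rose, and 32 were not called. That is 41% lower and 6.56% higher, against 15% lower and 14% higher among all 11364 features tested, of which 29% were called in either direction. The median over the 61 genes was -0.10, against 8e-04 over all features. A negative mean was found for 44 of the 61 genes, and on single arrays between 40 and 46 of them lay below 0. Changes were small in size, with a median absolute log2 ratio of 0.14 among the chromatin genes, but larger than the 0.083 over all features. Only Hdac9 fell at least 2-fold and no gene rose 2-fold, against 18 such called falls and 213 rises among the 11364 features. More than 1.5-fold changes were seen for 5 genes (8.2%), all falls, against 4.86% of all features in either direction. The same sign on all 6 arrays was found for 28 of the 61 genes (45.9%), against 25.7% of all features. Of the 29 called genes, 27 had 1 sign throughout, Cbx2 and Prmt3 being the exceptions. Among all features, 2523 of the 3294 called had 1 sign throughout, which is 22.2% of the 11364 tested. Over the same arrays, all 18 of 18 measured cell cycle genes of a list fell (median -0.39), among them the proliferation marker gene Mki67 at -0.49 ± 0.076. The part of the cell cycle genes' decrease in the changes below was not tested.

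**Figure D1:**
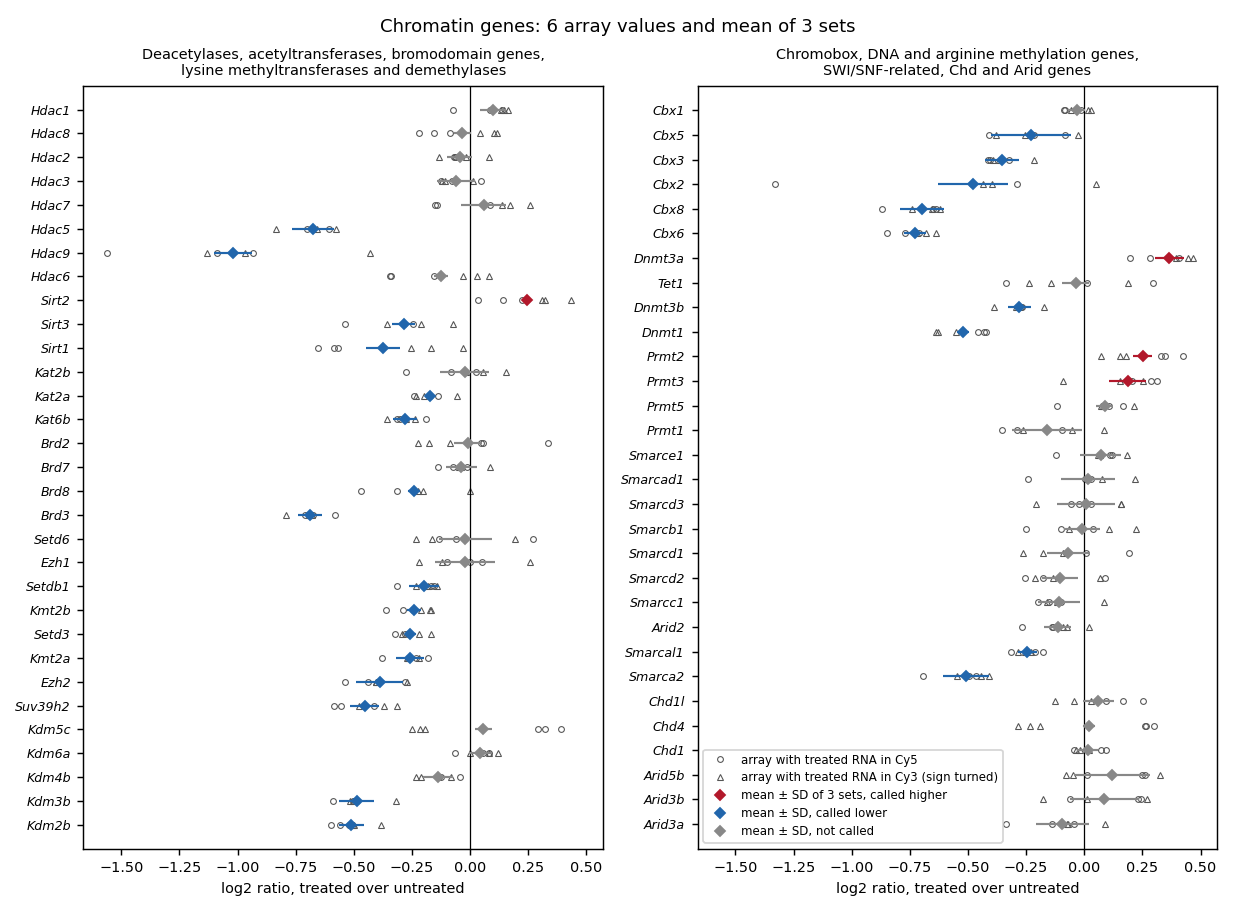
Log2 ratios, treated over untreated (x axis), for the 61 chromatin genes measured on all arrays (y axis). Open circles are arrays with treated RNA in Cy5, open triangles arrays with treated RNA in Cy3 after turning the sign, and diamonds with bars the mean ± SD of 3 sets, blue for the 25 genes called lower, red for the 4 called higher and grey for the 32 not called. Hdac9 lies farthest left at -1.02.

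**Figure D2:**
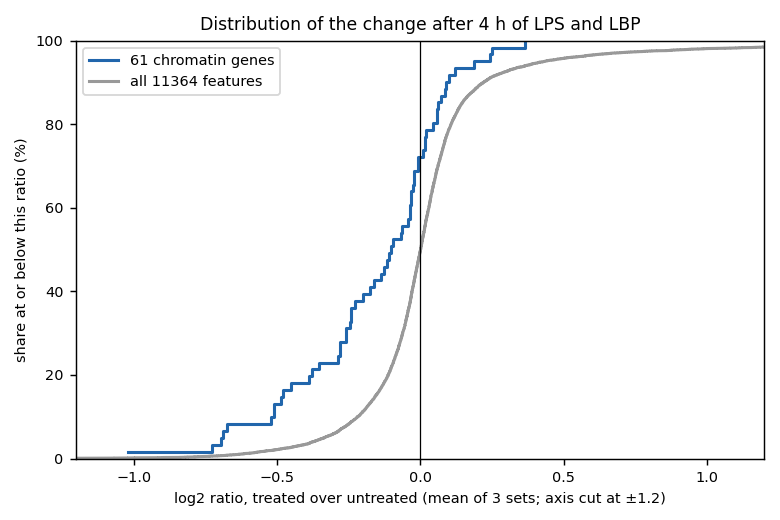
Cumulative share of genes (y axis, %) at or below a log2 ratio, treated over untreated (x axis, mean of 3 sets), for the 61 chromatin genes and all 11364 features. The line of the chromatin genes runs left of that of all features through the middle of the range, with medians of -0.10 and 8e-04.

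Among the histone deacetylases, the signal-responsive class IIa enzymes Hdac9 and Hdac5 fell, while none of the 4 class I enzymes was called. Over all features 29% were called. Hdac9 encodes a corepressor that shuttles between nucleus and cytoplasm and binds Mef2 transcription factors. Its log2 ratios were -1.09, -1.56 and -0.93 on the arrays of sets 1 to 3 with treated RNA in Cy5, and -1.13, -0.43 and -0.97 on those with it in Cy3. The 2 arrays of set 2 were the lowest and the highest of the 6, and every array lay below 0. The mean was -1.02 ± 0.083 (2.03-fold lower, limma adjusted p = 6.08e-06), and only 11 of 9574 named genes had a lower value. Without set 2 it was -1.03. Hdac5, a closely related class IIa corepressor, gave -0.70, -0.68 and -0.61 with treated RNA in Cy5 and -0.84, -0.66 and -0.58 with it in Cy3, for a mean of -0.68 ± 0.089 (1.60-fold lower, adjusted p = 5.57e-05). The third measured class IIa gene, Hdac7, was at 0.059 ± 0.097 (adjusted p = 0.456), with -0.15, -0.14 and 0.084 in Cy5 and 0.14, 0.17 and 0.26 in Cy3, so that 2 of its arrays lay below 0.

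The RefSeq promoter of Hdac9, the gene with the largest fall among the 61, is shown from 250 bases before to 50 after the start of transcription (build GRCm38.p6). Of its 2 promoters in the table the one with a match is given. The capitals mark a match to the binding motif of NF-κB, the main transcription factor switched on by LPS, at position -217.
Hdac9, chr12:34917046-34917345, minus strand: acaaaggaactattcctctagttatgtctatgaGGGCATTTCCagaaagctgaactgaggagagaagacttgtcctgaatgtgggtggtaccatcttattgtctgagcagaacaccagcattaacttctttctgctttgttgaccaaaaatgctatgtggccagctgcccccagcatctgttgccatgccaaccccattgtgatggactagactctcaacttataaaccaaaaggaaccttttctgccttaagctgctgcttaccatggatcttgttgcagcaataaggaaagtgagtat
The match is a description of these letters, and 1.63% of the 32851 promoters of the table, or 1.89% of its 27025 genes in any window, hold one on either strand. Among the 50 measured chromatin genes with a promoter there, Hdac9 and Setdb1, both called lower, held it.

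Among class I deacetylases, Hdac1, Hdac2 and Hdac3 form the catalytic core of the Sin3, NuRD, CoREST and Ncor repressor complexes. Hdac1 was at 0.099 ± 0.055, with 5 of 6 arrays above 0 (95% interval of the limma fit -0.0054 to 0.20). The closely related Hdac2 was at -0.045 ± 0.054 (-0.15 to 0.059), and Hdac3, the enzyme of the Ncor complex measured with 3 probes, at -0.062 ± 0.081 (-0.17 to 0.050). Hdac8 averaged -0.034 ± 0.036 (-0.13 to 0.066), with -0.088, -0.22 and -0.16 in Cy5 and 0.10, 0.11 and 0.044 in Cy3. None of the 4 had an unadjusted p below 0.05. Hdac6, the cytoplasmic tubulin deacetylase of class IIb, averaged -0.13 ± 0.030 and was not called (adjusted p = 0.0605).

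All 3 measured sirtuins, deacylases that depend on NAD, were called, in different directions, against 29% of all features called. Sirt1, the nuclear deacetylase that acts on histones and on the NF-κB subunit p65, gave -0.57, -0.59 and -0.65 with treated RNA in Cy5 and -0.17, -0.030 and -0.25 with it in Cy3. The orientations did not overlap, but all 6 values were below 0. Its mean was -0.38 ± 0.073 (1.30-fold lower, adjusted p = 8.05e-04), and on the Cy3 arrays alone it was at -0.15 and was not called (adjusted p = 0.182). The mitochondrial Sirt3 fell by 0.29 ± 0.049 (adjusted p = 0.00228), a call that also ended on the Cy3 arrays alone (adjusted p = 0.104). Sirt2, a mainly cytoplasmic deacetylase, rose by 0.24 ± 0.019 (adjusted p = 0.00375). With treated RNA in Cy5 it had 0.14, 0.034 and 0.22, and with it in Cy3 0.32, 0.43 and 0.31. On the Cy5 arrays alone the mean was 0.13 and was not called (adjusted p = 0.230).

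Acetyltransferases and acetyl-lysine readers had 4 falls and 0 rises among 7 measured genes, where 15% of all features were called lower and 14% higher. Kat6b, the enzyme of the MOZ/MORF complex, fell by 0.28 ± 0.052 (adjusted p = 0.00264), with arrays from -0.36 to -0.19, and just missed on the Cy5 arrays alone (adjusted p = 0.0526). Kat2a (Gcn5), the acetyltransferase of the SAGA complex, fell by 0.17 ± 0.021 (adjusted p = 0.0171), a call that ended without set 1 (adjusted p = 0.0829), without set 3 (adjusted p = 0.0537) and on either orientation alone. Its paralogue Kat2b (Pcaf) was at -0.024 ± 0.11 (adjusted p = 0.784). A second Kat2b probe, measured on only 3 arrays, had -2.47 and -1.62 with treated RNA in Cy5 and 2.35 with it in Cy3, so its sign followed the dye. Brd3, a BET protein that binds acetylated histones and helps transcription elongate, had the fourth largest fall of the 61 genes. Its arrays gave -0.68, -0.71 and -0.58 with treated RNA in Cy5 and -0.79, -0.69 and -0.68 with it in Cy3, a narrow range in both orientations. The mean was -0.69 ± 0.053 (1.61-fold lower, adjusted p = 2.94e-05). Brd2, the other BET gene measured, was at -0.0085 ± 0.061 (adjusted p = 0.916, 95% interval -0.11 to 0.097), with 0.047, 0.057 and 0.34 in Cy5 and -0.18, -0.089 and -0.22 in Cy3. Brd8, a subunit of the Tip60 acetyltransferase complex, fell by 0.24 ± 0.025 (adjusted p = 0.00406), which was not called on the Cy3 arrays alone (-0.14, adjusted p = 0.213). Brd7, a subunit of the PBAF remodeller, was at -0.038 ± 0.066 (adjusted p = 0.605).

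Of 8 genes grouped by symbol as lysine methyltransferases, 6 fell (75%, against 15% of all features) and 0 rose. All 8 means were negative (range -0.45 to -0.022). Suv39h2, which sets the heterochromatin mark H3K9me3, had the largest fall. It gave -0.55, -0.58 and -0.41 with treated RNA in Cy5 and -0.48, -0.32 and -0.37 with it in Cy3, for a mean of -0.45 ± 0.062 (1.37-fold lower, adjusted p = 2.70e-04). Ezh2, the catalytic subunit of Polycomb repressive complex 2 that sets H3K27me3, gave -0.44, -0.54 and -0.28 in Cy5 and -0.41, -0.40 and -0.27 in Cy3. Its mean of -0.39 ± 0.10 was a 1.31-fold fall (adjusted p = 0.00110), and every array lay below 0. Ezh1, the paralogue found also in cells that do not divide, was at -0.022 ± 0.13 (adjusted p = 0.820), and its arrays ranged from -0.22 to 0.26. The H3K4 methyltransferase genes Kmt2a (-0.26 ± 0.062, adjusted p = 0.00430) and Kmt2b (-0.24 ± 0.030, adjusted p = 0.00423) fell, as did Setd3 (-0.26 ± 0.024, adjusted p = 0.00300). Setd3 is best known as the actin histidine methyltransferase, and without it the group has 5 falls among 7 genes. Each of these 3 calls ended on a single orientation, for Kmt2a on the Cy5 arrays (adjusted p = 0.0668), for Kmt2b on the Cy3 arrays (adjusted p = 0.0727) and for Setd3 also on the Cy3 arrays (adjusted p = 0.0527). Setdb1, another H3K9 methyltransferase, fell by 0.20 ± 0.065 (adjusted p = 0.0145), a call lost without set 3 (-0.16, adjusted p = 0.0577) and on either orientation alone. Setd6, which methylates p65, was at -0.022 ± 0.11 (adjusted p = 0.811).

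Lysine demethylase genes had 2 falls and 0 rises among 5, which is 40% lower against 15% of all features. With 5 genes this says little about the family. Kdm2b, which removes H3K36 methylation and brings a Polycomb complex to CpG islands, gave -0.56, -0.60 and -0.52 with treated RNA in Cy5 and -0.50, -0.50 and -0.38 with it in Cy3 (mean -0.51 ± 0.052, 1.42-fold lower, adjusted p = 1.26e-04). Kdm3b, an H3K9 demethylase, gave -0.49, -0.50 and -0.59 in Cy5 and -0.32, -0.51 and -0.50 in Cy3 (mean -0.49 ± 0.075, 1.40-fold lower, adjusted p = 2.29e-04). Both genes were below 0 on every array. Kdm4b, a demethylase of H3K9me3, was at -0.14 ± 0.065 and just missed the threshold (adjusted p = 0.0593), although it passed without set 3 (-0.18, adjusted p = 0.0461). The X-linked genes Kdm6a, an H3K27 demethylase, at 0.044 ± 0.048 (adjusted p = 0.516), and Kdm5c, an H3K4 demethylase, at 0.057 ± 0.036 (adjusted p = 0.383), were not called. For Kdm5c the orientations were opposite, with 0.29, 0.39 and 0.32 in Cy5 and -0.21, -0.19 and -0.25 in Cy3. Kdm5d, the related Y-linked gene, was at exactly 0 on 1 array. Over its 2 complete sets it was at 0.034 ± 0.067 (SD, n = 2, adjusted p = 0.735).

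Chromobox genes, whose proteins bind methylated histone H3, fell in 5 of 6 cases (83.3%, against 15% of all features) and rose in 0. Their median was -0.42. The largest falls were in the Polycomb members Cbx6 and Cbx8, which belong to Polycomb repressive complex 1, the reader of H3K27me3. Cbx6, measured with 2 probes at -0.83 and -0.62, gave -0.85, -0.77 and -0.71 with treated RNA in Cy5 and -0.68, -0.72 and -0.64 with it in Cy3. Its mean of -0.73 ± 0.049 was a 1.66-fold fall (adjusted p = 2.09e-05). Cbx8 gave -0.87, -0.64 and -0.65 in Cy5 and -0.74, -0.65 and -0.62 in Cy3 (mean -0.70 ± 0.095, 1.62-fold lower, adjusted p = 5.33e-05). No array of either gene lay above -0.62. Cbx2, also of the Polycomb complex, varied most in this family between single arrays. It had -0.29, -1.33 and -0.48 in Cy5 and -0.39, 0.051 and -0.43 in Cy3, with both extremes in set 2. The mean was -0.48 ± 0.15 (adjusted p = 9.33e-04), it was -0.40 without set 2, and the call ended on either orientation alone (adjusted p = 0.0891 in Cy5 and 0.167 in Cy3). It also ended when the 6 arrays were fitted singly, without averaging within sets (adjusted p = 0.0607). Among the heterochromatin proteins HP1, Cbx3 (HP1γ) fell by 0.35 ± 0.074 (adjusted p = 0.00111), with arrays from -0.42 to -0.21. Cbx5 (HP1α) fell by 0.23 ± 0.17 (adjusted p = 0.0380), a call that ended without set 1 (-0.14, adjusted p = 0.174) and on either orientation alone. Cbx1 (HP1β) was at -0.032 ± 0.036 (adjusted p = 0.640). Members of such families are close in sequence, and how far each probe also takes up a relative's transcript was not tested.

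The DNA methyltransferase genes moved apart. Dnmt1, which copies DNA methylation onto the new strand during replication, fell, and Dnmt3a, which methylates DNA anew, rose. Dnmt1 gave -0.45, -0.42 and -0.43 with treated RNA in Cy5 and -0.63, -0.64 and -0.55 with it in Cy3, without overlap between the orientations but with every array below 0. Its mean, over 2 probes at -0.54 and -0.50, was -0.52 ± 0.026 (1.43-fold lower, adjusted p = 8.89e-05). Dnmt3a was the largest rise of the 61 genes, at 0.41, 0.20 and 0.28 in Cy5 and 0.47, 0.44 and 0.39 in Cy3. That is a mean of 0.37 ± 0.063 (1.29-fold higher, adjusted p = 8.04e-04), which was 0.30 and just missed on the Cy5 arrays alone (adjusted p = 0.0529). Dnmt3b, the second de novo enzyme, fell by 0.28 ± 0.050 (adjusted p = 0.00253), with arrays from -0.39 to -0.17. Dnmt3l, the catalytically inactive partner of the de novo enzymes, was at exactly 0 on both arrays of set 1 and is not among those 61. In sets 2 and 3 it had 0.58 and 0.50 in Cy5 and 0.49 and 0.45 in Cy3, and it rose, at 0.51 ± 0.042 (SD, n = 2 sets, adjusted p = 0.00100), when features with 2 complete sets were let into the limma fit. Tet1, which oxidises methylated cytosine, was at -0.037 ± 0.058 (adjusted p = 0.608), and its arrays ran from -0.33 to 0.30.

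Besides the promoter of Dnmt3a, the largest rise among the 61 genes measured on all arrays, those of 4 genes called lower are shown because they share TTTNGCGC, a pattern bound by E2F factors, which drive genes of DNA replication. They run from 250 bases before to 50 after the start of transcription (RefSeq, build GRCm38.p6), and capitals mark matches to a searched motif on either strand. Where a gene has several promoters in the table, one with a match was taken.
Dnmt3a, chr12:3806730-3807029, plus strand: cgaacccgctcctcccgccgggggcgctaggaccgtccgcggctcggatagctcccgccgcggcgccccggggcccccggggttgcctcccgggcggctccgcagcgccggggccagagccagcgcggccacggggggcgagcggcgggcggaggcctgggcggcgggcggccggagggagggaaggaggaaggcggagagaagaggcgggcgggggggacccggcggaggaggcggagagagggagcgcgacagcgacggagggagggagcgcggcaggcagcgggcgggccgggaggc
Dnmt1, chr9:20952574-20952873, minus strand: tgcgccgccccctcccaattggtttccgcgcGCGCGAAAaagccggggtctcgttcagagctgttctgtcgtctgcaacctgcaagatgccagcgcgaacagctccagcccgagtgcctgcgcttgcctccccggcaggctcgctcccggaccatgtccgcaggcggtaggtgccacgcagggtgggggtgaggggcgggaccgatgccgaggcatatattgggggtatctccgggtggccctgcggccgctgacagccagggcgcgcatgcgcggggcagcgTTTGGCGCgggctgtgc
Ezh2, chr6:47594981-47595280, minus strand: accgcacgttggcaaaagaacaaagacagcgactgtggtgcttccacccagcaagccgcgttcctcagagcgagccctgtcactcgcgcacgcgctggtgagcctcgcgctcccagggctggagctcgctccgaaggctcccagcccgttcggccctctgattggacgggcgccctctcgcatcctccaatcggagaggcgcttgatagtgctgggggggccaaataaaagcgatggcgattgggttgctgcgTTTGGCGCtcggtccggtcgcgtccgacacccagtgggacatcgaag
Cbx3, chr6:51470366-51470665, plus strand: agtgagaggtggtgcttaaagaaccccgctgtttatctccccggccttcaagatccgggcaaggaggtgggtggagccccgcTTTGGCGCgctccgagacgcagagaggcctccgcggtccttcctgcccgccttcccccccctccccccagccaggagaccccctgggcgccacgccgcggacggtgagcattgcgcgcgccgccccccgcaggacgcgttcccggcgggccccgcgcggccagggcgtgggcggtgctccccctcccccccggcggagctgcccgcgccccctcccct
Cbx5, chr15:103239803-103240102, minus strand: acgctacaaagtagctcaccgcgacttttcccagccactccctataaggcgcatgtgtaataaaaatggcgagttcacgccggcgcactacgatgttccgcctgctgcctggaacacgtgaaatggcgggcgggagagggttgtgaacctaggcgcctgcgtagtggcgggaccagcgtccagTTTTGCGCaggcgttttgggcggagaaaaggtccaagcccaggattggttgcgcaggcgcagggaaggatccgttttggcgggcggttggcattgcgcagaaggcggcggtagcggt
The window of Dnmt1 holds the pattern at positions -219 (on the opposite strand) and 34, that of Ezh2 at 4, that of Cbx3 at -168 and that of Cbx5 at -67. None of the searched motifs is in the window of Dnmt3a. Of the chromatin genes with a promoter in the table, 4 of 21 called lower, 0 of 4 called higher and 0 of 25 not called held TTTNGCGC in any of their windows. In any window it is held by 1.57% of all 27025 genes with a promoter, and by 1.38% of single promoters. The interferon response element, held by 3.99% of all genes and 3.44% of all promoters, was found for Cbx5 (in its other window) and Brd7 and no other of the 50 genes. In the windows shown, no matches overlapped.

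Arginine methyltransferase genes had 2 rises and 0 falls among 4, against 14% higher and 15% lower among all features. With 4 genes this says little about the family. Prmt2, which sets asymmetric dimethylarginine, rose by 0.25 ± 0.040 (1.19-fold, adjusted p = 0.00380). It had 0.35, 0.33 and 0.43 with treated RNA in Cy5 and 0.072, 0.18 and 0.15 with it in Cy3, all above 0, and on the Cy3 arrays alone it was not called (0.13, adjusted p = 0.165). A second Prmt2 probe had a value on only 1 array, at 1.92. With the exact zeros of all probes kept, the mean of Prmt2 was 0.29 and was not called (limma adjusted p = 0.287). In that fit Prmt3, Cbx5 and Setdb1 also lost their calls, with unchanged means. Prmt3, the ribosomal protein methyltransferase, rose by 0.19 ± 0.080 (adjusted p = 0.0228), with 1 of 6 arrays below 0. That call ended without set 1 (adjusted p = 0.0620), without set 3 (adjusted p = 0.0863), on the Cy3 arrays alone (adjusted p = 0.422) and with the 6 arrays fitted singly (adjusted p = 0.0677). Prmt5, the main enzyme of symmetric dimethylation, was at 0.088 ± 0.038 over 2 probes (adjusted p = 0.181). The sign of 1 of them followed the dye, with 0.31, 0.32 and 0.24 in Cy5 and -0.145, -0.13 and -0.087 in Cy3. Prmt1, the main enzyme of asymmetric dimethylation, was at -0.16 ± 0.15 (adjusted p = 0.0950) and was called lower without set 2 (-0.24, adjusted p = 0.00642).

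In the SWI/SNF-related group 2 of 10 genes fell and 0 rose. At 20% lower this is near the 15% of all features called lower. Smarca2 (Brm), an ATPase that powers the BAF remodelling complex, gave -0.47, -0.69 and -0.50 with treated RNA in Cy5 and -0.41, -0.55 and -0.44 with it in Cy3. Its mean of -0.51 ± 0.099 was a 1.42-fold fall (adjusted p = 2.70e-04), with no array above -0.41. Smarcal1, an annealing helicase of stalled replication forks that is no subunit of BAF, fell by 0.25 ± 0.041 (adjusted p = 0.00432), which was not called on the Cy5 arrays alone (adjusted p = 0.0722). Besides Smarca2, none of the BAF subunit genes measured in this group was called, against 29% of all features. With so few genes this says little about the complex. Smarcb1 was at -0.0085 ± 0.076, Smarcc1 at -0.11 ± 0.090, Smarce1 at 0.071 ± 0.089, Smarcd1 at -0.068 ± 0.092 and Smarcd3 at 0.0089 ± 0.12 (adjusted p from 0.156 to 0.930). Smarcd2, over 3 probes from -0.22 to -0.041, averaged -0.10 ± 0.078 (adjusted p = 0.158), and 1 of the 3 probes was called lower when single probes were tested. The called probe had 0.0042, 0.10 and -0.083 in Cy5 and -0.35, -0.47 and -0.52 in Cy3. Another had -0.36, -0.20 and -0.41 in Cy5 and 0.38, 0.17 and 0.13 in Cy3, so its sign followed the dye. The PBAF subunit gene Arid2 was at -0.11 ± 0.057 (adjusted p = 0.101), and the remodeller gene Smarcad1 at 0.016 ± 0.12 (adjusted p = 0.866). Smarca5, the ATPase of ISWI complexes, was at exactly 0 on both arrays of set 1. In sets 2 and 3 it had -1.36 and -1.005 in Cy5 and 0.87 and 0.28 in Cy3, so its sign followed the dye. With only those sets its mean was -0.31 ± 0.083 (SD, n = 2 sets, limma adjusted p = 0.0114).

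None of the Chd and remaining Arid genes was called in limma, against 29% of all features, and none of the 6 had an unadjusted p below 0.05. The nucleosome remodeller genes Chd1 (0.015 ± 0.047), Chd4 of the NuRD complex (0.020 ± 0.026) and Chd1l (0.061 ± 0.068) had adjusted p from 0.388 to 0.843. For Chd4 that mean joined 0.26, 0.30 and 0.26 with treated RNA in Cy5 and -0.19, -0.23 and -0.29 with it in Cy3. Arid5b, a partner of the demethylase Phf2, was at 0.12 ± 0.16, and the DNA-binding proteins Arid3b and Arid3a at 0.087 ± 0.15 and -0.095 ± 0.11 (adjusted p from 0.224 to 0.354).

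**Figure D3:**
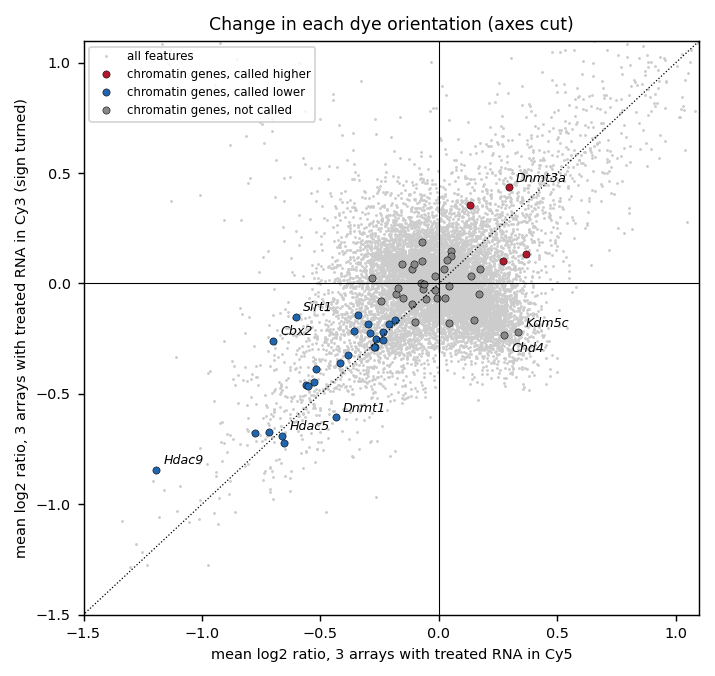
Mean log2 ratio, treated over untreated, on the 3 arrays with treated RNA in Cy5 (x axis) against that on the 3 arrays with it in Cy3 after turning the sign (y axis), for all features (light grey) and the 61 chromatin genes (coloured by call), with the dotted line marking equal values. All 25 genes called lower (blue) lie below 0 on both axes and all 4 called higher (red) above 0 on both, whereas Kdm5c and Chd4 lie at 0.33 and 0.27 on the x axis but below 0 on the y axis.

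Partners of these enzymes in the same complexes, and other chromatin genes, from a list of 107, moved in both directions. Of the 66 measured, 19 fell (28.8%, against 15% of all features) and 8 rose (12.1%, against 14%). Their median was -0.074, and the share of rises was near that of all features. The largest change was the rise of Daxx, a histone H3.3 chaperone, with 2.12, 2.27 and 1.93 with treated RNA in Cy5 and 2.12, 2.24 and 2.10 with it in Cy3 (mean 2.13 ± 0.12, limma adjusted p = 3.12e-07). The Polycomb genes Pcgf5 (0.75 ± 0.050) and Phc2 (0.37 ± 0.059), the Sin3 complex subunit gene Sap30 (0.73 ± 0.049) and the gene of the acetyl-lysine reader Mllt3 (0.25 ± 0.077) followed. The largest falls were those of Uhrf1, which guides Dnmt1 to newly copied DNA, at -0.68 ± 0.14, and of the subunit genes of the replication-linked histone chaperone CAF-1, Chaf1b (-0.66 ± 0.12) and Chaf1a (-0.62 ± 0.13). Ing2 (-0.66 ± 0.13) and Ing4 (-0.59 ± 0.064), readers of H3K4 methylation, were the other 2 of the 5 largest falls. All of these had 1 sign on all 6 arrays.

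**Figure D4:**
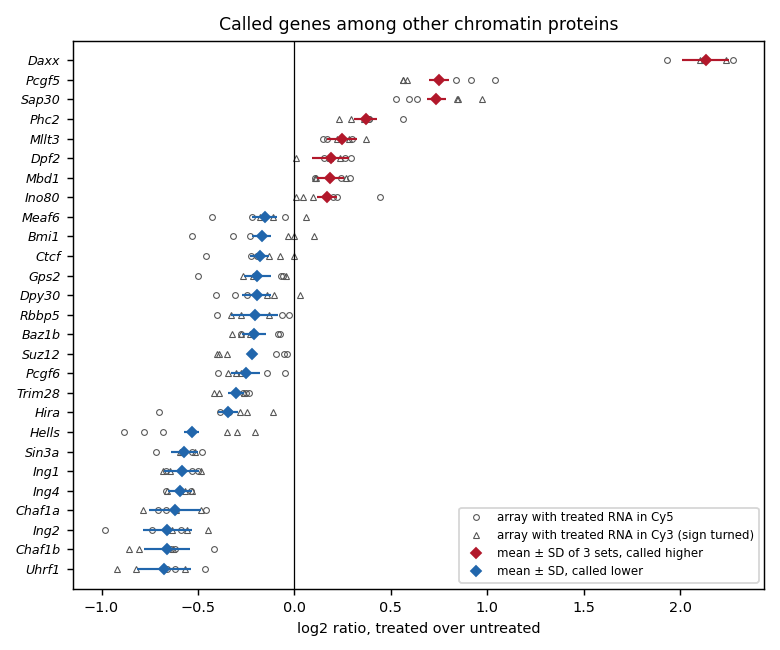
Log2 ratios, treated over untreated (x axis), for called genes among the 66 measured chromatin genes outside the families above (y axis), with circles for arrays with treated RNA in Cy5, triangles for arrays with it in Cy3 after turning the sign, and diamonds with bars for the mean ± SD of 3 sets. Rises (red) are led by Daxx at 2.13, and among the falls (blue) Uhrf1 lies lowest at -0.68.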

How the data were processed

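The deposited values are log2 ratios of the 2 dyes of each array, 1 per probe, for 16281 probes on 6 arrays. Base 2 was inferred from the maximum of 6.64, the log2 of 100. Each deposited column has its median at 0 with its exact zeros included, and at 0.0017 to 0.0195 without them. The authors' scanner, background correction and normalization: not given in the sources used here. The number of arrays limits the precision. Exact zeros were taken as not measured, which left 14195 to 15027 probes per array.

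Columns with treated RNA in Cy3 had their sign turned, probes of 1 gene were averaged, and each set was averaged over its 2 arrays. It is assumed, not stated, that the arrays of a set share their RNA. The 11364 features (9574 named genes) measured on all arrays were fitted with limma 3.58.1 (R 4.3.3; lmFit and eBayes, two-sided, against 0), with Benjamini-Hochberg adjustment over all features. Gene names came from the platform annotation, in which 13738 probes have 1 symbol, 52 several and 2491 none. All 64 symbols used here matched RefSeq by Entrez Gene ID. Tet2, Crebbp, Ep300, Kdm6b, Smarca4, Ncor1 and Pcna were not analysed here.

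The members, families, further gene lists and alternatives were chosen with earlier results of these data known. The rule for named genes took the 12 largest called rises and falls, up to 4 called and 2 uncalled members of each family, a named set of genes, members whose probes disagree, and up to 5 called rises and 5 falls of the further list. The remaining measured members were added after their values were seen.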

Additional observations from a re-analysis of the deposited data

Results flagged for a closer look

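For 4 of the 61 genes every array of one dye orientation lay on the opposite side of 0 from every array of the other, as for 1473 of all features (13%). Kdm5c averaged 0.33 with treated RNA in Cy5 and -0.22 with it in Cy3, and Chd4 0.27 and -0.24. Brd2 averaged 0.15 in Cy5 and -0.16 in Cy3, and Hdac8 averaged -0.15 in Cy5 and 0.087 in Cy3. None of the 4 was called for the treatment over the 3 sets. On a single orientation Kdm5c was called higher in Cy5 (adjusted p = 0.0302) and lower in Cy3 (adjusted p = 0.0480), and Chd4 likewise (adjusted p = 0.0425 in Cy5 and 0.0438 in Cy3). In limma's test of the dye effect on the same sets their adjusted p ran from 0.166 to 0.217. That test called 0 of the 61 genes (8 had an unadjusted p below 0.05) and 0 of all features (2630 had one).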

How the results depend on the processing

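Over 16 alternatives, 13 of the 29 called genes were called in every one (Brd3, Cbx3, Cbx6, Cbx8, Dnmt1, Dnmt3b, Ezh2, Hdac5, Hdac9, Kdm2b, Kdm3b, Smarca2 and Suv39h2), the other 16 lost the call in at least 1, and 0 changed sign. Their signs were nearly fixed beforehand, since several alternatives keep the same mean and 27 of the 29 had 1 sign on all 6 arrays. The number of genes called lower ran from 18 on either orientation alone to 28 with the set number as a random block (3698 of all features called), and was 23 to 26 with 1 set left out. The 18 on the Cy3 arrays (2382 of all features called) hold 16 of the 25 falls, with Kdm5c and Chd4, which were called higher on the Cy5 arrays. Of the 32 genes not called, 7 gained a call in at least 1 alternative, namely Kdm5c and Chd4 on either orientation alone, Arid2, Kdm4b and Prmt1 with the random block, Kdm4b also without set 3 and under the filter on sign, Prmt1 also without set 2, Hdac6 with exact zeros kept and Smarcd2 with single probes. The number called higher was 3 to 4 with 1 set left out, 2 on the Cy3 arrays alone, 2 with exact zeros kept and 1 over the 6 arrays with the set number as a fixed replicate block. That replicate block gave 20 genes lower and ended 8 calls (Brd8, Cbx2, Kat2a, Prmt2, Prmt3, Sirt1, Sirt2 and Sirt3). It called 1752 of all features, against 3294 from set means and 2467 over 6 arrays with no replicate block, where the calls of Cbx2 and Prmt3 ended. Of all features 1825 were called on the Cy5 arrays alone and 2127 at an adjusted p below 0.01. Deviations of same-numbered arrays from their orientation means correlated at -0.484, -0.512 and -0.02. Between arrays of opposite orientation and different number the range was -0.122 to 0.527. Same-numbered arrays were thus no more alike than others, and the numbers are not shown to pair the arrays. The median of the chromatin genes was -0.12 to -0.089 with 1 set left out, -0.15 on the Cy5 arrays alone and -0.28 over the 29 genes with the same sign in both orientations of every set, a filter that leaves out genes near 0.

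Signs changed only among genes not called, 16 of 32, while those of the called genes could hardly change. On the Cy5 arrays alone these were Hdac7 (-0.070), Brd2 (0.15), Setd6 (0.025), Smarcad1 (-0.070), Smarcd3 (-0.018) and Smarcd1 (0.041). On the Cy3 arrays alone they were Hdac6 (0.026), Kat2b (0.064), Brd7 (3e-04), Kdm5c (-0.22, called with adjusted p = 0.0480), Chd1l (-0.048), Chd4 (-0.24, called with adjusted p = 0.0438), Hdac8 (0.087), Smarcb1 (0.088) and Chd1 (-0.012). With 1 set left out the ranges that crossed 0 were Kat2b (-0.055 to 0.038), Brd2 (-0.041 to 0.020), Ezh1 (-0.097 to 0.022), Setd6 (-0.066 to 0.042), Smarcad1 (-0.031 to 0.081), Smarcd3 (-0.034 to 0.080), Smarcb1 (-0.048 to 0.028) and Chd1 (-8e-04 to 0.041). The causes were not tested.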
